A study of Mus musculus with 30 samples.

Results

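CCR2high macrophages of a mouse glioma were compared according to whether they carried GFP that had come from the tumor. The 8 libraries were chosen by their sample titles, 4 GFPpos and 4 GFPneg, out of 30 libraries in the series. They were paired by the number in the title prefix (22, 23, 24 and 26), which was taken as the mouse. The mice were heterozygous C57BL6.CCR2RFP/WT reporter animals of 12 to 18 weeks, so that 1 of their Ccr2 alleles carried RFP in both groups. GL261, a mouse glioma line grown in the syngeneic brain, had been made to express a palmitoylated GFP that is held in its membranes. The cells were sorted from the tumor-bearing brain by CD11b, high CD45, F4/80, Ly6C and CCR2 (RFP), and GFP in a sorted cell served as the mark of contact with tumor membrane. All libraries came from tumor-bearing mice, and the 4 mice are the only replicates.

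Macrophages take up dying cells, membrane fragments and vesicles through surface receptors and soluble bridging proteins, and pass the cargo through endosomes to the lysosome. There, acid pumps of the vacuolar ATPase lower the pH, and cathepsins, glycosidases and lipases break the cargo down into amino acids, sugars, lipids, heme and iron. CCR2 is the receptor by which monocytes follow the chemokine CCL2 out of the blood, and its expression is known to decline as monocytes mature into tissue macrophages.

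The 8 libraries held 1688256 to 4825813 gene counts, with 9815 to 12228 genes at 5 or more reads. Synthetic spike-in RNAs added before reverse transcription gave 0.400% to 1.02% of counts, highest in the GFPpos library of mouse 24. Neither the spike-in share nor the number of genes differed between GFPpos and GFPneg libraries beyond the spread of the pairs (exact paired permutation test, two-sided, p = 0.5 and p = 0.875, n = 4 pairs, where the smallest p possible is 0.125). Xist was read only in the 2 libraries of mouse 26 (42.8 and 77.7 CPM), while the Y-linked Ddx3y was read in both libraries of each other mouse (44.2 to 90.9 CPM) and had no count in those of mouse 26, so that both members of each pair matched. The study describes mice of both sexes in equal number, which these counts, with Xist in 1 of 4 mice, do not show. CPM (counts divided by the library size in units of 1e+06 reads) use library sizes scaled by TMM, which assumes that most genes do not differ.

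The cells carried the transcripts of their gate. Itgam, which encodes CD11b, ranged from 276 to 1270 CPM, Adgre1, which encodes F4/80, from 347 to 831 CPM, and Csf1r, the receptor for the macrophage growth factor CSF1, from 2253 to 4427 CPM. Transcripts of other cells were also present in all 8 libraries. The 11 T and NK cell markers summed to 550 to 2066 CPM, and the 8 microglia markers to 2265 to 4571 CPM. The 14 neural progenitor and glioma lineage markers summed to only 15.6 to 109 CPM.

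When all 8 populations of the series shared 1 fit without the mouse as a term, 0 of 11566 genes (0%) passed between GFPpos and GFPneg cells at an adjusted p under 0.05 (quasi-likelihood test of edgeR, Benjamini-Hochberg adjustment). At an unadjusted p under 0.05 there were 71 genes (0.614%), 33 higher (0.285%) and 38 lower (0.329%), and 25.8% of genes had a 95% interval inside 1 log2 unit. By DESeq2, 1 gene was called. Each mouse, however, gave both a GFPpos and a GFPneg library, and the mice differed from each other. With GFP state and mouse as terms in a fit of the 8 libraries, 1396 of 10169 genes (13.7%) differed between mice. In that paired fit 6 genes (0.059%) were called between GFPpos and GFPneg cells, 5 of them higher in GFPpos cells. There 520 genes (5.11%) were below an unadjusted p of 0.05, 274 higher (2.69%) and 246 lower (2.42%). A share of about 0.05 of genes passes that threshold also where no gene differs. By direction alone, 6.17% of 11566 genes were higher and 7.16% lower in the GFPpos library of all 4 mice (13.3% in 1 direction or the other). The 4 libraries of each group did not overlap in 1.6% (0.813% higher, 0.787% lower). With 4 pairs, some genes take 1 direction in every mouse, or do not overlap, also where no gene differs.

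The 5 genes that rose in GFPpos cells were Ctsd, Pld3, H2-M2, Pla2g2d and Hmox1, and the gene that fell was Gzma. Ctsd (chr7:142375911-142388038, GRCm38, minus strand) encodes cathepsin D, the main aspartic protease of the lysosome. It measured 7852, 4957, 7283 and 4988 CPM in the GFPneg libraries of mice 22, 23, 24 and 26, and 10886, 7154, 10585 and 8656 CPM in their GFPpos libraries. Each mouse was higher in its GFPpos library, although the groups overlapped because the mice differed in level. The paired difference was 1.5-fold (95% interval 1.35 to 1.67; log2 fold change 0.59, SE 0.0695, edgeR adjusted p = 0.0252). The annotation also places Gm49369 on the same strand over Ctsd.

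Pld3 (chr7:27532000-27553218) encodes a phospholipase D family member that acts as a nuclease in the lysosome. It measured 396, 423, 394 and 483 CPM in GFPneg cells and 601, 692, 658 and 830 CPM in GFPpos cells of the same mice, and here the groups did not overlap. The difference was 1.64-fold (95% interval 1.42 to 1.89, adjusted p = 0.0252). Hmox1 (chr8:75093621-75100589), heme oxygenase 1, which splits heme into biliverdin, carbon monoxide and iron, measured 274, 229, 109 and 824 CPM in GFPneg cells and 387, 394, 234 and 1489 CPM in GFPpos cells. Mouse 26 stood far above the others in both libraries, and each mouse was higher in its GFPpos library, by 1.75-fold in the paired fit (95% interval 1.47 to 2.09, adjusted p = 0.0442).

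H2-M2 (chr17:37480851-37483552) encodes a non-classical class I molecule of the MHC, and Pla2g2d (chr4:138775735-138782046) encodes a secreted phospholipase A2 that is known from lymphoid tissue macrophages and dendritic cells. H2-M2 measured 135, 117, 141 and 44.7 CPM in GFPneg cells and 348, 255, 301 and 77.5 CPM in GFPpos cells, a 2.14-fold difference (95% interval 1.74 to 2.64, adjusted p = 0.0252). Class I genes form a family of close copies, so that reads may be shared and the value is uncertain to that degree. Pla2g2d was read at a low level, at 14.1, 3.33, 17.6 and 5.29 CPM in GFPneg cells and 84.8, 22.7, 69.6 and 18 CPM in GFPpos cells. All 4 GFPpos libraries lay above all 4 GFPneg libraries, and the 4.80-fold difference (95% interval 3.06 to 7.52, adjusted p = 0.0252) was the largest of the 6.

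Gzma (chr13:113093825-113100981) encodes granzyme A, a protease of the granules of cytotoxic T and NK cells. It measured 197, 187, 588 and 155 CPM in GFPneg cells and 105, 109, 234 and 92.1 CPM in GFPpos cells. The GFPpos library was lower in each of the 4 mice, at 0.522 of the GFPneg level (95% interval 0.424 to 0.642, adjusted p = 0.0461), and mouse 24 was the highest in both groups.

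**Figure D1:**
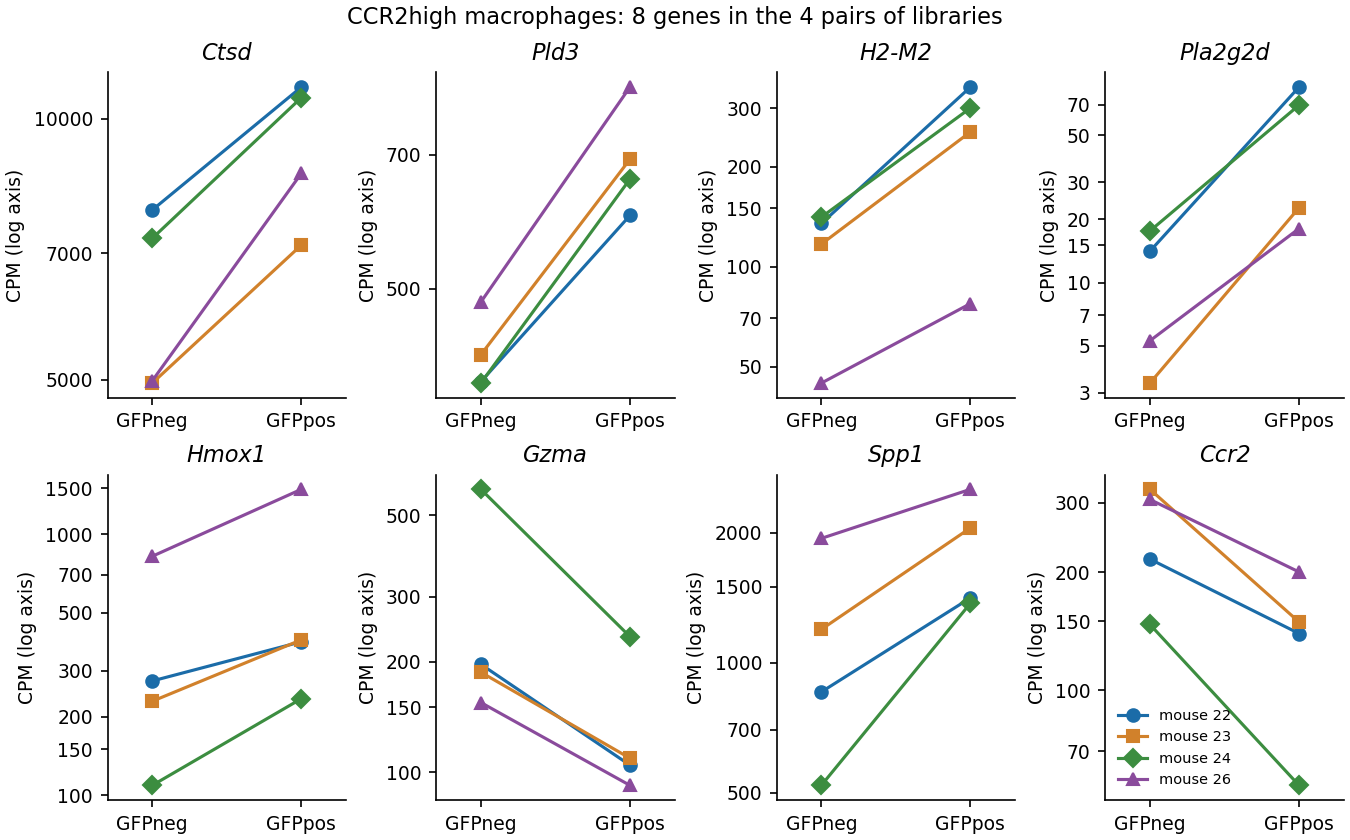
Levels of 8 genes in CCR2high macrophages, in CPM on log axes that do not start at 0; each line joins the GFPneg and GFPpos libraries of 1 mouse. Ctsd, Pld3, H2-M2, Pla2g2d, Hmox1 and Spp1 are higher in the GFPpos library of every mouse, and Gzma and Ccr2 are lower; Spp1 and Ccr2 did not pass the adjusted threshold (both at 0.0883).

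The calls depended on which mice were included. Without mouse 22, mouse 23 or mouse 24 the paired fit called 0 genes (457, 418 and 451 at an unadjusted p under 0.05, or 4.18%, 4.54% and 4.15%). Without mouse 26 it called 5 (0.0547%, with 6.33% at the unadjusted threshold), of which 3 (Ctsd, H2-M2 and Pla2g2d) were among the 6. The log2 fold changes moved little in these fits, from 0.52 to 0.63 for Ctsd and from 0.69 to 0.75 for Pld3. The differences also depend on the scaling. By the paper's methods a set amount of RNA entered each library, so spike-in scaling does not measure RNA per cell. With libraries scaled by the spike-in RNAs the median over all genes of the log2 fold change was -0.353 in place of -0.0179 (GFPpos over GFPneg), none of the 6 was called, and 1 other gene was. On that scale Ctsd was at 0.24 and Pld3 at 0.36, both above the median of all genes.

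Of the 27 gene lists, the lysosome list had the most members that were higher in GFPpos cells. All 39 genes of the list were tested, and 18 were higher at an unadjusted p under 0.05 and 0 lower, against 2.69% and 2.42% of all tested genes. Their median log2 fold change was 0.23, beside -0.0179 for all tested genes. Higher counts make a small difference easier to detect, so the share was also read among genes that averaged 100 CPM or more. There 17 of 31 lysosome genes were higher, against 5.86% of the 1946 genes at that level (4.16% lower). In the fit over all populations 3 of the 39 had an unadjusted p under 0.05, all higher. Only Ctsd passed the adjusted threshold.

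The proteases made up much of this group. Besides Ctsd, the cysteine cathepsins Ctsb, Ctsz and Ctsl, the serine carboxypeptidase Ctsa and the asparaginyl endopeptidase Lgmn were higher at an unadjusted p under 0.05. Ctsb measured 7920, 6053, 5607 and 6087 CPM in GFPneg cells and 9627, 7344, 8332 and 7902 CPM in GFPpos cells, 1.3-fold (95% interval 1.17 to 1.45, adjusted p = 0.118). Ctss, the cathepsin that trims the invariant chain in antigen-presenting cells, had a log2 fold change of 0.14 (95% interval -0.01 to 0.29), and Ctsh one of 0.08 (95% interval -0.10 to 0.26).

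Membrane proteins and a subunit of the proton pump were represented too. Among the vacuolar ATPase genes of the list only Atp6v0d2 had an unadjusted p under 0.05. Atp6v0a1, Atp6v0c, Atp6v0d1, Atp6v1a, Atp6v1b2 and Atp6v1h did not. Cd63, a tetraspanin of late endosomes and lysosomes, measured 897, 881, 1019 and 1003 CPM in GFPneg cells and 1473, 1263, 1481 and 1160 CPM in GFPpos cells, without overlap between the groups, at an adjusted p of 0.148. Lamp1, which encodes a main glycoprotein of the lysosomal membrane, measured 106, 100, 110 and 123 CPM in GFPneg cells and 135, 216, 195 and 122 CPM in GFPpos cells, with no increase in mouse 26. Lamp2 stood at a log2 fold change of 0.01 (95% interval -0.17 to 0.19). Atp6v0d2, a vacuolar ATPase subunit of macrophages and osteoclasts, was low in GFPneg cells, with 0 counts in mouse 22 (3 counts there would be 1.78 CPM) and 12.1, 20.6 and 5.52 CPM in the others. In GFPpos cells it measured 24.2, 75.4, 40.3 and 35.2 CPM, all above the GFPneg libraries, with a log2 fold change of 2.47 (SE 0.504, adjusted p = 0.201).

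Glycosidases and cofactors completed the group. Gaa (acid alpha-glucosidase), Man2b1 (alpha-mannosidase), Hexa (a glycosidase), Psap (prosaposin), Grn (progranulin), Cd68 and Gpnmb were higher at an unadjusted p under 0.05. Grn measured 4415, 3442, 3057 and 4204 CPM in GFPneg cells and 5190, 4513, 3936 and 5392 CPM in GFPpos cells, 1.27-fold (95% interval 1.14 to 1.40, adjusted p = 0.167). Of the transcription factors of the list, Tfeb had a log2 fold change of -0.06 (95% interval -0.59 to 0.47) and Tfe3 one of -0.09 (95% interval -0.45 to 0.27). Both intervals include 0 and also 0.23, the median of the list.

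**Figure D2:**
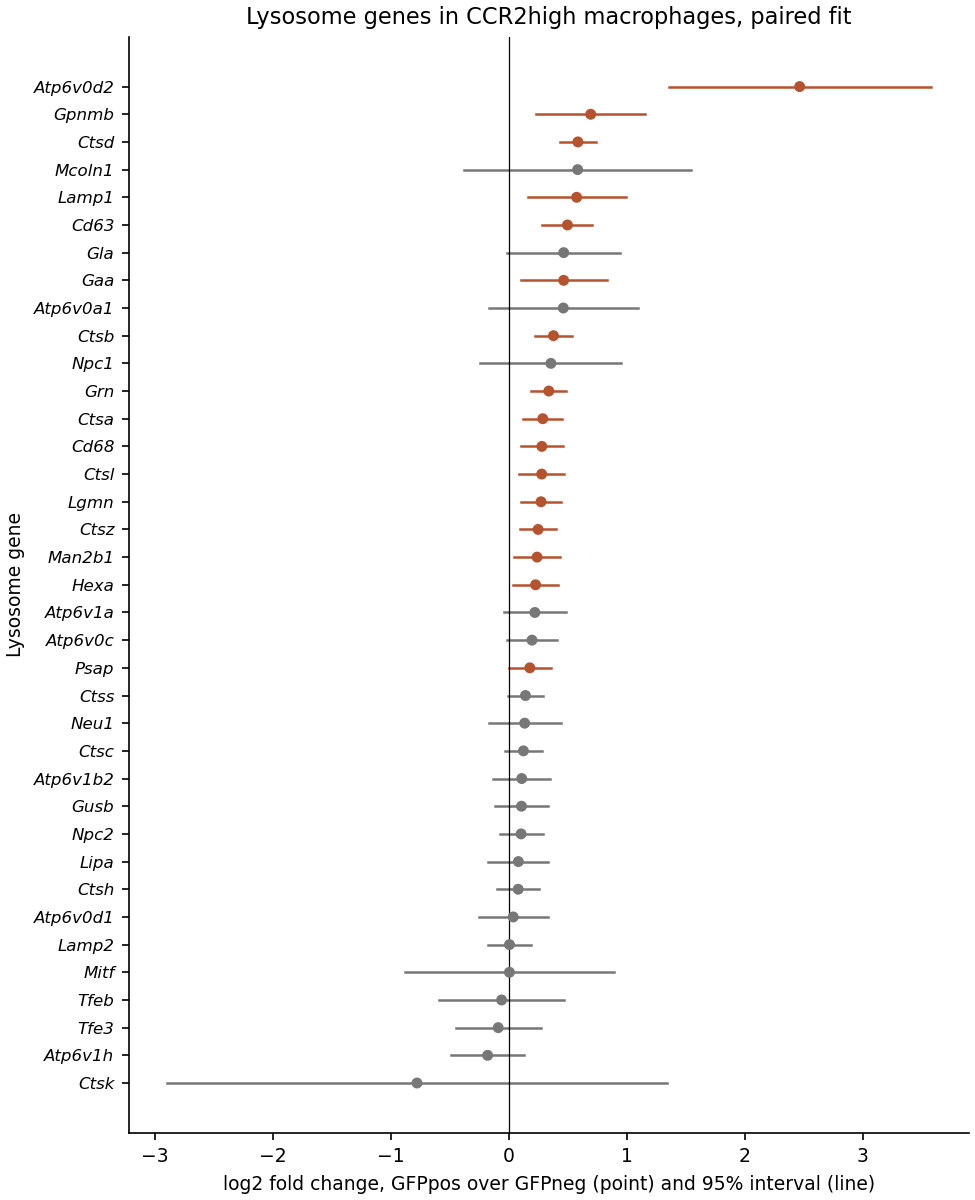
Paired log2 fold change of GFPpos over GFPneg CCR2high macrophages for 37 of the 39 lysosome genes (points; 2 of the 18 higher members are not drawn) with 95% intervals (lines); orange marks an unadjusted p under 0.05. The 16 orange genes all lie to the right of 0, and Lamp2, Tfeb and Tfe3 lie near it.

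Summed over the list, lysosome transcripts took 67694, 52258, 53725 and 53346 CPM in GFPneg cells and 77463, 61029, 69736 and 66110 CPM in GFPpos cells. The GFPpos library was higher in every mouse, by 1.14-fold to 1.3-fold, and mouse 22 was the highest in both groups. Without each mouse in turn, 13 to 17 members were higher at an unadjusted p under 0.05, the fewest without mouse 24, where 2.33% (without mouse 22), 2.59% (23), 2.03% (24) and 2.98% (26) of all genes were. With spike-in scaling the list's median was -0.11, above the -0.353 of all genes, and 1 member was higher at that threshold. On that scale the list was higher only relative to other genes.

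Other transcripts moved with this group. The summed T and NK cell markers were lower in the GFPpos library of all 4 mice, as given below, and the summed microglia markers were higher in 3 of 4. Their part in the lysosome result was not tested. In bulk libraries, fewer cells of a type and less RNA per cell cannot be told apart.

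Many lysosome genes share a short promoter sequence, known as the site of TFEB and its relatives, with the core CACGTG. Promoters from the RefSeq table for GRCm38.p6 (250 bases before to 50 after each start) were available for 31 of the 39 list genes. The letters CACGTG, which read the same on both strands, were in the window of 10 of these 31 genes (32.3%), beside 8.09% of all 27025 genes in the table. The longer form GTCACGTG, searched on both strands and always containing the shorter, was in 7 of 31 (22.6%), beside 2.55% of all genes. Of the list genes that were higher at an unadjusted p under 0.05, 6 of 14 held CACGTG, and of the other list genes 4 of 17. A match is only a match of letters. The starts are those of the RefSeq table. The Gencode span of Ctsd given above reaches 142388038, so part of the bases shown for Ctsd lies inside that span. The 250 bases before the start are shown for Ctsd, the called member (chr7:142387828-142388077, minus strand, matches at -245 and -98 from the start), and for Lamp1, whose window holds 4 matches (chr8:13158911-13159160, plus strand, at -61, -45, -28 and -15), with each match in capitals and the 2 bases that lengthen it to GTCACGTG also in capitals where they occur.
Ctsd: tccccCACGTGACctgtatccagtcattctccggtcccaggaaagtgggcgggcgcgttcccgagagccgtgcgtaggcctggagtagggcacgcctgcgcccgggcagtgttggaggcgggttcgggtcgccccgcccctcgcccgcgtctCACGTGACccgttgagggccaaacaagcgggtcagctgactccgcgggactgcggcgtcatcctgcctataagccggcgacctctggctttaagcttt
Lamp1: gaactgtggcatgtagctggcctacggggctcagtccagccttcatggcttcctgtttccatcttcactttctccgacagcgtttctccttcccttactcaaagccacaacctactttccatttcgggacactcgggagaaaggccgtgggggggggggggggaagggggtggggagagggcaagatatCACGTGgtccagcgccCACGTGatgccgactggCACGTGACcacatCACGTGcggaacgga

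Genes of uptake had the next highest number of higher members. Of the 33 uptake receptors and bridging proteins, 29 were tested, of which 9 were higher at an unadjusted p under 0.05 and 0 lower (2.69% and 2.42% of all genes). The list's median log2 fold change was 0.23, and 28 of the 29 were above 0. With spike-in scaling 1 member was higher at that threshold and the median was -0.12, beside -0.353 for all genes. No member passed the adjusted threshold.

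The complement proteins of this list, C1qa, C1qb and C1qc, encode the chains of C1q, which binds dying cells and debris. C1qa measured 3029, 2649, 2454 and 2587 CPM in GFPneg cells and 3653, 3527, 3063 and 3148 CPM in GFPpos cells, without overlap, 1.25-fold (95% interval 1.13 to 1.39, adjusted p = 0.232). C1qb and C1qc were higher in every mouse, at 1.17-fold and 1.23-fold.

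Among the receptors, Trem2, which binds lipids and lipoproteins, measured 368, 299, 378 and 400 CPM in GFPneg cells and 444, 483, 439 and 525 CPM in GFPpos cells, 1.32-fold without overlap (95% interval 1.11 to 1.56, adjusted p = 0.555). Mrc1, the mannose receptor, measured 50.6, 78.9, 67.8 and 320 CPM against 80.9, 110, 164 and 490 CPM in the same mice, 1.68-fold (adjusted p = 0.208). Stab1 and Colec12, both scavenger receptors, also had an unadjusted p under 0.05. Mertk, a receptor for bridged phosphatidylserine, and Axl of the same family did not, at log2 fold changes of 0.35 and 0.20.

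The bridging proteins Gas6 and Mfge8, which link phosphatidylserine to TAM receptors and to integrins, were low. Gas6 measured 7.04, 25.2, 40.2 and 6.21 CPM in GFPneg cells and 47.8, 59.3, 45.8 and 16.2 CPM in GFPpos cells, a log2 fold change of 1.29 (SE 0.363, adjusted p = 0.555). The intracellular machinery of engulfment and endosomes stayed near the shares of all genes. Of its 24 tested genes, 0 were higher and 1, Anxa2, was lower at an unadjusted p under 0.05, beside 2.69% and 2.42% of all genes. The median log2 fold change of this list was near 0.

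**Figure D3:**
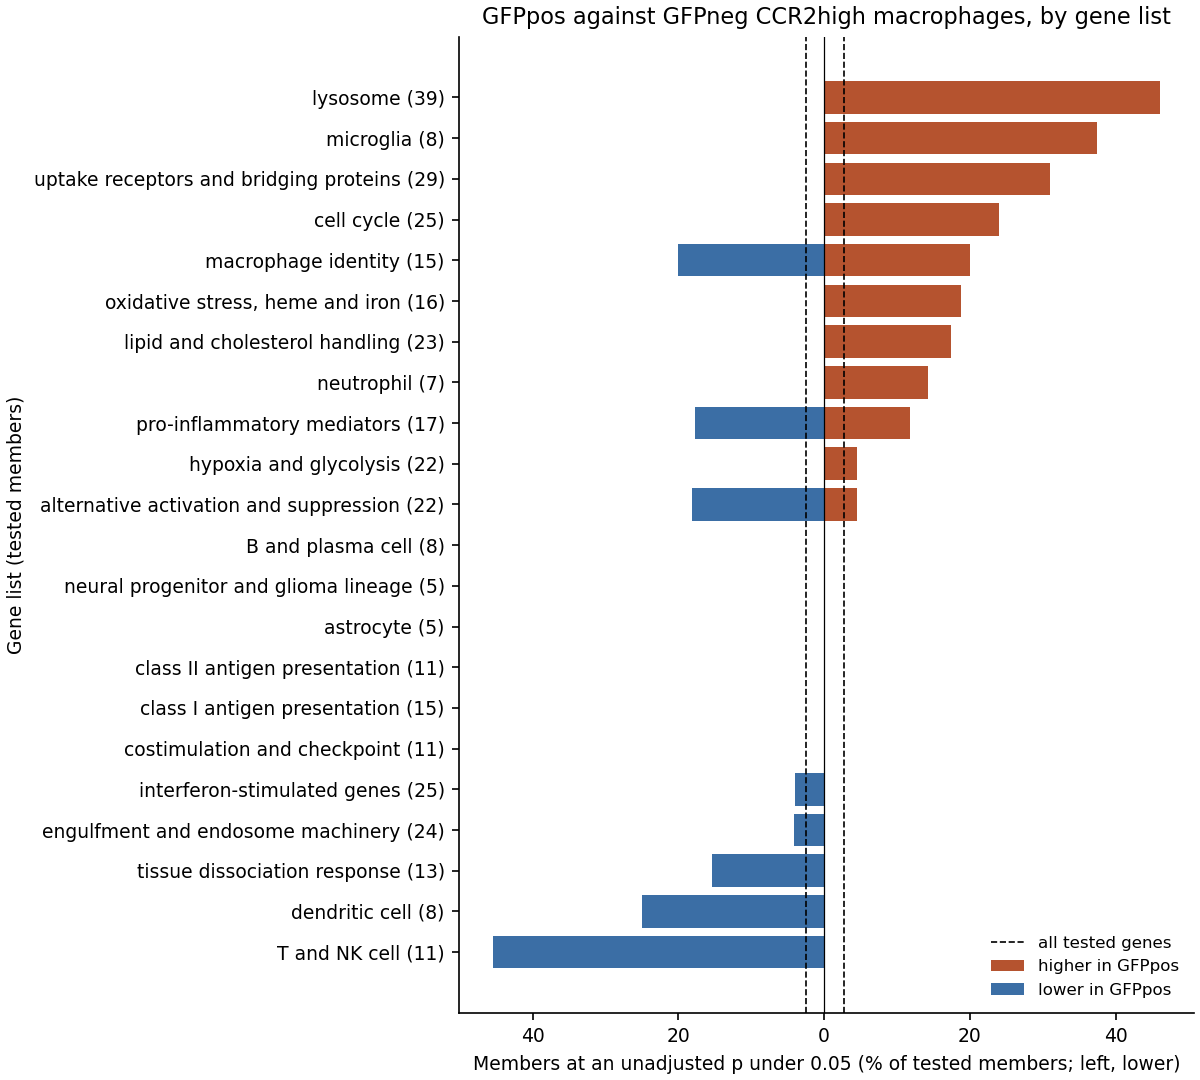
Share of the tested members of each gene list (number in parentheses) that had an unadjusted p under 0.05 in the paired fit, to the right for genes higher in GFPpos cells and to the left for lower ones; dashed lines mark the shares over all tested genes, 2.69% and 2.42%. The lysosome list reaches furthest to the right and the T and NK cell list furthest to the left.

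Genes that handle the products of breakdown gave smaller counts. In the lipid and cholesterol list 4 of 23 tested genes were higher at an unadjusted p under 0.05 and 0 lower, beside 2.69% and 2.42% of all genes, and 0 passed the adjusted threshold. These were Spp1 (osteopontin), Fabp5 (a fatty acid carrier), Abca1 (the cholesterol exporter) and Lgals3 (galectin-3). Spp1 measured 856, 1194, 520 and 1940 CPM in GFPneg cells and 1413, 2051, 1373 and 2520 CPM in GFPpos cells, 1.76-fold (95% interval 1.43 to 2.17) at an adjusted p of 0.0883. In the list for oxidative stress, heme and iron 3 of 16 were higher at that threshold and 0 lower, and 1 was higher without mouse 24. Beside Hmox1 these were Slc11a1, a metal transporter of the phagosome, at 1.35-fold, and Ftl1, the ferritin light chain, at 1.14-fold.

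Of 25 cell cycle genes, 6 (Mcm2, Ube2c, Ccnb1, Cdk1, Birc5 and Aurka) were higher at an unadjusted p under 0.05 and 0 lower, beside 2.69% and 2.42% of all genes, and 0 passed the adjusted threshold. Mcm2, a subunit of the replicative helicase, measured 88.3, 83.3, 69.8 and 82.9 CPM in GFPneg cells and 108, 111, 137 and 149 CPM in GFPpos cells, a 1.55-fold difference (95% interval 1.2 to 2.00, adjusted p = 0.482). The summed list was higher in all 4 mice, by 1.09-fold to 1.46-fold. The count was 2 without mouse 24, 3 without mouse 22 and 0 with spike-in scaling.

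Class I and class II antigen presentation genes were examined as lists, to which H2-M2, called above, does not belong. None of the 11 class II genes, the 15 class I genes or the 11 tested costimulatory and checkpoint genes had an unadjusted p under 0.05, where 5.11% of all genes did. H2-Ab1, a class II beta chain, measured 16600, 8973, 14851 and 7642 CPM in GFPneg cells and 16762, 9349, 15826 and 7495 CPM in GFPpos cells. Its log2 fold change was 0.04 with a 95% interval from -0.09 to 0.16. Cd74, the invariant chain, stood at 0.08 (95% interval -0.06 to 0.21). Over all genes, 5623 of 10169 (55.3%) had a 95% interval inside 1 log2 unit in the paired fit.

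Inflammatory genes went in both directions. Of 17 tested mediators, 2 were higher at an unadjusted p under 0.05, the monocyte-attracting chemokines Ccl2 and Ccl7, and 3 were lower, Il1b, Cxcl2 and Ptgs2, beside 2.69% and 2.42% of all genes. Without mouse 22 each count was 1, and without mouse 23 it was 1 higher and 3 lower. Il1b measured 2633, 1096, 1454 and 3391 CPM in GFPneg cells and 1610, 920, 1089 and 2691 CPM in GFPpos cells, lower in every mouse (log2 fold change -0.42, SE 0.0906, adjusted p = 0.232). Of the 22 genes of alternative activation and suppression, Mrc1 was higher at that threshold, and Ccl17, Ccl22, Socs3 and Stat3 were lower, with 2 lower without mouse 22, 23 or 26. Of 25 interferon-stimulated genes only Gbp5 had an unadjusted p under 0.05, and it was lower.

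Of 15 macrophage identity genes, 3 were higher (Adgre1, Cd68 and Mrc1) and 3 lower (Ptprc, Ccr2 and Nr4a1) at an unadjusted p under 0.05, beside 2.69% and 2.42% of all genes, and 0 passed the adjusted threshold. The count of lower members was 1 without mouse 22 or mouse 23, and 2 were higher without mouse 22. Ccr2 (chr9:124101950-124113557), the gene that names the gate, measured 216, 325, 147 and 306 CPM in GFPneg cells and 140, 149, 57.4 and 200 CPM in GFPpos cells. It was lower in the GFPpos library of every mouse, at 0.531 of the GFPneg level (95% interval 0.421 to 0.669), at an adjusted p of 0.0883. Ccr2 ranged from 32.6 to 113 CPM in GFPneg CCR2low macrophages, below all 4 GFPneg CCR2high libraries, and from 35.2 to 108 CPM in GFPpos CCR2low macrophages, a range that the GFPpos CCR2high library of mouse 24 shared. The gate was set on the RFP reporter, and the counts do not measure it.

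Among T and NK cell markers Gzma was the gene that passed the adjusted threshold. Of 11 T and NK cell markers 5 were lower at an unadjusted p under 0.05 (Gzma, Klrb1c, Nkg7, Lck and Cd3g) and 0 higher (2.42% and 2.69% of all genes), with a list median of -0.35. The count of lower members was 3 without mouse 24. The summed markers took 1026, 1281, 2066 and 707 CPM in GFPneg cells and 667, 1098, 1154.5 and 550 CPM in GFPpos cells, so that GFPpos cells held 0.559 to 0.857 of the GFPneg level in each mouse. Nkg7, a granule protein of cytotoxic cells, measured 335, 363, 585 and 169 CPM against 164, 327, 251 and 129 CPM. Of 8 dendritic cell markers, Cd209a and Ccr7 were lower at that threshold and 0 higher, and the count of lower members was 1 without mouse 22, mouse 23 or mouse 24. B and plasma cell markers showed 0 of 8 in either direction, and their sum was higher in the GFPpos library of 3 of 4 mice.

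Of 8 microglia markers, Fcrls, Olfml3 and Tmem119 were higher at an unadjusted p under 0.05 and 0 lower (2.69% and 2.42% of all genes), with a list median of 0.20. None passed the adjusted threshold, and 1 was higher without mouse 23 or mouse 26. Fcrls measured 145, 200, 330 and 396 CPM in GFPneg cells and 207, 384, 486 and 752 CPM in GFPpos cells, 1.68-fold (95% interval 1.40 to 2.01, adjusted p = 0.0708). The purinergic receptor P2ry12, also a microglia marker, had a log2 fold change of 0.05 (95% interval -0.29 to 0.38), and the summed markers were lower in the GFPpos library of mouse 24. For neural progenitor and glioma lineage markers, none of the 5 tested members had an unadjusted p under 0.05, and the summed markers were 39.1, 68.9, 15.6 and 109 CPM in GFPneg cells and 22.9, 46.9, 18.9 and 82.4 CPM in GFPpos cells, lower in 3 of 4 mice. The other 9 members were too low to test. In CCR2low macrophages 4 of 7 tested members of this list were higher in GFPpos cells at an unadjusted p under 0.05, where 4.58% of all genes were. The list median there was 2.08.

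**Figure D4:**
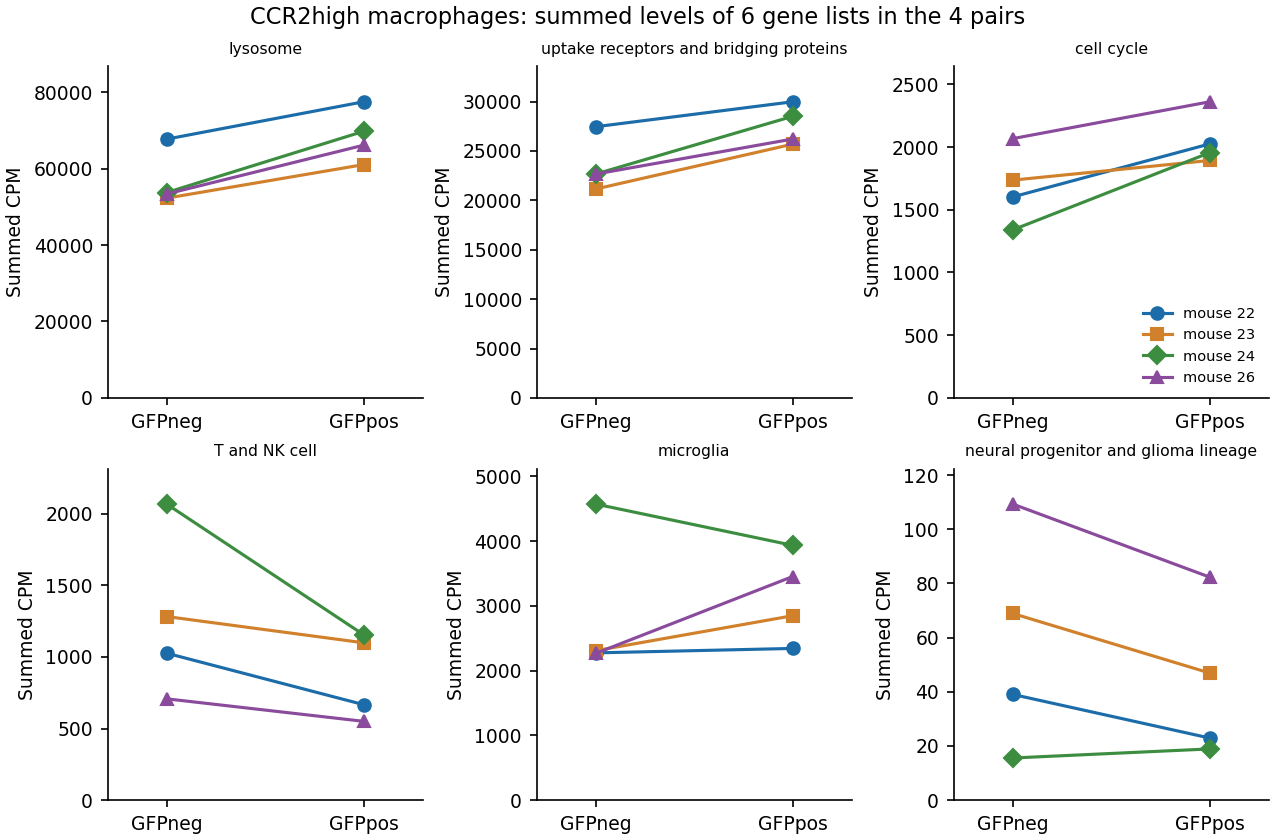
Summed CPM of 6 gene lists in CCR2high macrophages on axes from 0, with a line joining the 2 libraries of each mouse. Lysosome, uptake and cell cycle sums are higher in the GFPpos library of every mouse, the T and NK cell sum is lower in every mouse, and the microglia and glioma lineage sums go in both directions.

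Beyond the lists, the genes that led the comparison by unadjusted p in the fit over all populations, with libraries that did not overlap, were taken in each direction. Non-overlap was part of the choice. The leading higher genes were Pla2g2d, Speg, Dpp7, Atp6v0d2, Tpp1, Mmp2, Ccl8, Timp2, Slc25a10 and Mapkapk2. Atp6v0d2 is a member of the lysosome list, Dpp7 and Tpp1 encode peptidases, Mmp2 is a gelatinase, Timp2 its inhibitor and activator, and Ccl8 a chemokine of tissue macrophages. Ccl8 measured 79.4, 407, 91.4 and 328 CPM in GFPneg cells and 431, 804, 430 and 489 CPM in GFPpos cells, a log2 fold change of 1.51 in the paired fit (SE 0.27, adjusted p = 0.117). Mmp2 measured 69.1, 92.3, 105 and 68.6 CPM against 161, 138, 191 and 114 CPM, at 0.84 (SE 0.154, adjusted p = 0.118).

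The leading lower genes were Supv3l1, Klrb1c, Cd200, Stxbp3a, S100a10, Ubash3a, Lpar6, Trim26, Ceacam1 and Rad1. Klrb1c encodes an NK cell receptor, Ubash3a a regulator of T cell receptor signaling, and Cd200 the ligand of an inhibitory receptor on myeloid cells. Cd200 measured 46.7, 33.1, 81.9 and 45.3 CPM in GFPneg cells and 15.3, 25.7, 31.7 and 21.7 CPM in GFPpos cells, at a log2 fold change of -1.06 (SE 0.266, adjusted p = 0.423). Speg, Slc25a10, Supv3l1, Lpar6, Trim26 and Ceacam1 overlap a gene on the opposite strand, and the sources used here name no strand setting for the counting.

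The genes named from CCR2high macrophages were then followed in libraries that had not chosen them, the CCR2low macrophages of the same 4 mice. All 5 genes that rose in GFPpos CCR2high cells were also above 0 there, where 52.7% of all genes were. Of these 5, 4 had an unadjusted p under 0.05. Of all genes, 4.58% were higher at that threshold and 0.364% were called. The log2 fold change was 2.32 for Pla2g2d (SE 0.423), 0.83 for H2-M2 (SE 0.175), 0.77 for Hmox1 (SE 0.142) and 0.58 for Pld3 (SE 0.143). Ctsd reached 0.19 (SE 0.116) there. Its difference between the populations, 0.41 (SE 0.128), had an unadjusted p of 0.00669 and an adjusted p of 0.861. Gzma stood at -1.25 (SE 0.381) in CCR2low macrophages.

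The wider set was followed in the same way. Of the 274 genes that were higher at an unadjusted p under 0.05 in CCR2high cells, 269 were tested in CCR2low macrophages, and 69 (25.7%) were higher at that threshold there and 2 lower. Of the 246 lower genes 240 were tested, and 68 (28.3%) were lower there and 7 higher, where 4.12% of all genes were lower. The leading higher genes were above 0 in CCR2low macrophages in 9 of 10 cases, while the leading lower genes were below 0 in 7 of 10. Of all genes, 52.7% were above 0 there. Supv3l1, Stxbp3a, Rad1 and the higher gene Mapkapk2 stood on opposite sides of 0 in the 2 populations.

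No gene could be called different in its GFP effect between the populations. In the paired test of CCR2high against CCR2low macrophages 0 of 10578 genes (0%) passed, the lowest adjusted p being 0.0652, and 508 (4.8%) were below 0.05 unadjusted. The counts of the lists stand side by side, and their difference was not tested. Of 38 tested lysosome genes 7 were higher and 1 lower at an unadjusted p under 0.05 in CCR2low macrophages, against 18 and 0 of 39 in CCR2high macrophages. Of all genes, 4.58% were higher and 4.12% lower at that threshold in CCR2low macrophages, and 2.69% and 2.42% in CCR2high macrophages. Of 10 tested T and NK cell markers 8 were lower at that threshold in CCR2low macrophages, with a median of -1.13. In CCR2high macrophages 5 of 11 were, with a median of -0.35. Cd3g, a chain of the T cell receptor complex, had a log2 fold change of -0.35 in CCR2high and -1.33 in CCR2low cells, and the difference of 0.998 (SE 0.186) reached an adjusted p of 0.177. Of 8 microglia markers, 5 were lower and 0 higher at an unadjusted p under 0.05 in CCR2low macrophages.

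**Figure D5:**
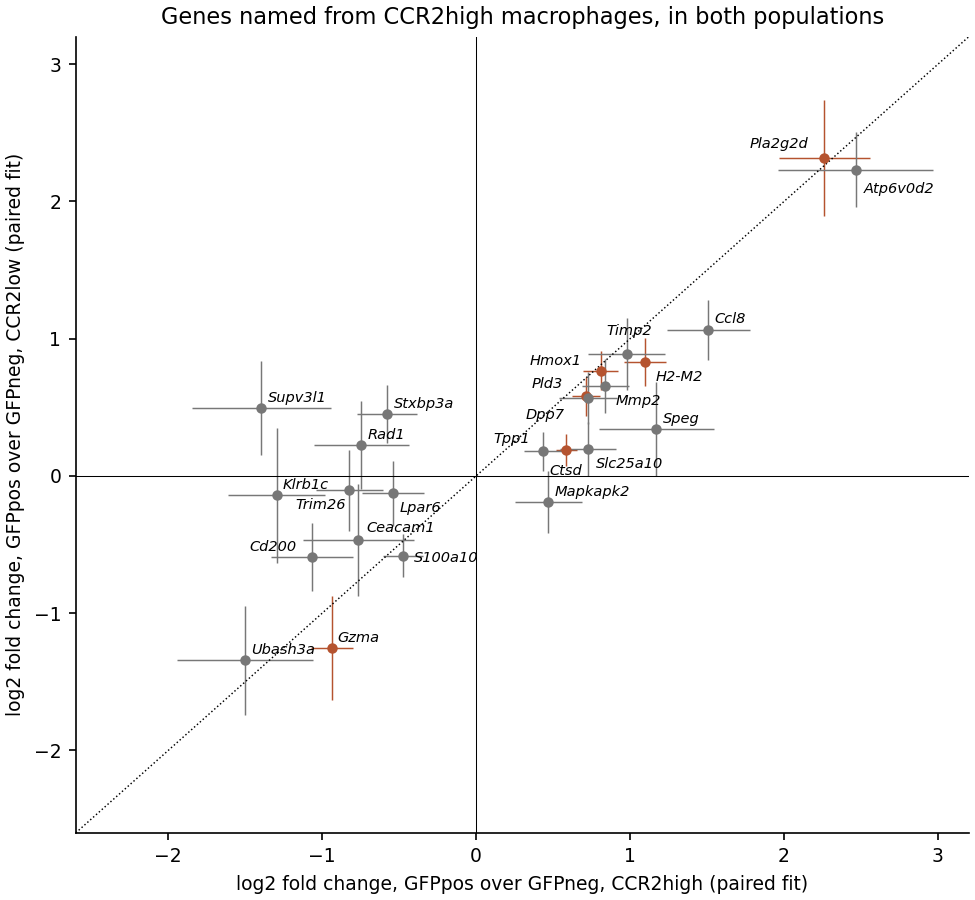
Paired log2 fold change of GFPpos over GFPneg cells in CCR2high (horizontal) and CCR2low (vertical) macrophages for the genes named from the CCR2high comparison, with bars of 1 SE and a dotted line of equality; orange marks the 6 called genes. Pla2g2d, Hmox1 and H2-M2 lie near the line, Ctsd lies below it at 0.59 and 0.19, and Supv3l1, Stxbp3a and Rad1 lie above 0 only in CCR2low macrophages.

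Glioma monocytes, available as 3 pairs, gave a less even picture. Spike-in RNAs took 8.68% and 1.29% of counts in the 2 summed GFPpos libraries of mouse 22. They took 5.16% in that of mouse 24 and 0.612% in that of mouse 26. In the GFPneg libraries of mice 22, 24 and 26 they took 0.596%, 0.742% and 0.319%. The part of these shares in the monocyte results was not tested. Of the 4 rising genes that could be tested in monocytes, 3 were above 0, where 48.1% of all genes were. H2-M2 alone had an unadjusted p under 0.05 (log2 fold change 1.75, SE 0.351), where 4.02% of all genes were higher at that threshold. Hmox1 stood at -0.31 (SE 0.268) and Gzma at 0.52 (SE 0.331), each on the other side of 0 than in CCR2high macrophages. The difference between the populations was 1.15 (SE 0.268) for Hmox1 and -1.43 (SE 0.342) for Gzma, both at an adjusted p of 0.381. Ccr2 was lower in GFPpos monocytes as well, at -1.45 (SE 0.247, adjusted p = 0.321). Of 39 lysosome genes tested in monocytes, 4 were higher and 2 lower at an unadjusted p under 0.05. Their median log2 fold change was -0.01, beside -0.03 for all genes. Of 11 T and NK cell markers 0 passed in either direction, with a median of 0.29. Of 29 uptake genes 4 were higher and 0 lower, and of 25 cell cycle genes 8 and 0. Over all 9682 genes, 1057 were below that threshold. The difference of these counts from CCR2high macrophages was not tested. Of 10690 genes tested, 0 (0%) differed in their GFP effect between CCR2high macrophages and glioma monocytes, and 1047 (9.79%) had an unadjusted p under 0.05.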

How the data were processed

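Poly-A RNA of sorted cells was amplified with SMARTer chemistry after addition of spike-in RNAs. Alignment by the authors was to mm10 (STAR), followed by duplicate removal (Picard) and gene counting against GRCm38.p3 (HTSeq, intersection-strict, strand setting not given in the sources used here). The deposited values are these unnormalized counts, for 45317 gene symbols and 92 spike-in RNAs in 30 libraries. Reads outside genes (6.28% to 8.97% of the 8 libraries) were left out of library sizes. The library under 6000 genes at 5 reads was dropped and 2 libraries of 1 sample were summed, which left 28 replicates of 8 populations.

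Counts were fitted with edgeR 4.0.16 (TMM, filterByExpr, robust quasi-likelihood, Benjamini-Hochberg adjusted p under 0.05), without the mouse over all populations and with the mouse as a replicate block over the 8 libraries. Libraries with the same number were taken to come from the same animal, which the titles do not state. Deviations from the group means correlated at 0.133 to 0.674 within a mouse and at -0.477 to 0.0747 between mice. Taking out the group means lowers the correlations between mice. In log2 CPM the GFPneg library of mouse 23 correlated at 0.9255 with the GFPpos library of mouse 22 and at 0.9250 with that of mouse 23. Log2 CPM used a prior count of 2, and 95% intervals came from the quasi-likelihood F. On simulated counts with 2-fold and 4-fold changes planted together, the paired fit called 28 of 50 genes raised 2-fold. The fit over all populations called 2 of 48. DESeq2 1.42.0, other scalings and filters, and each library or mouse left out were the alternatives. Named genes were the members of 27 lists, the 10 leading genes a direction (by unadjusted p, at least 10 CPM, libraries not overlapping), the genes called in the paired fit and the 5 with the highest CPM. The members, lists and tests were chosen with earlier results of these data known. Positions are from Gencode vM21 (GRCm38), which held the symbols of 96.2% of the 11566 tested genes.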

Additional observations from a re-analysis of the deposited data

Results flagged for a closer look

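In 110 sets of 4 libraries (genes named by call or rank, list sums and library measures, GFPneg and GFPpos apart), 11 held 1 library far from the other 3 by Dixon's test; chance gives about 1 in 20. Mouse 24 was such a library for Gzma in GFPneg cells (588 CPM, the others 155 to 197) and in GFPpos cells (234 CPM, the others 92.1 to 109), for the summed microglia markers in GFPneg cells (4571 CPM, the others 2265 to 2307), for the summed dendritic cell markers in GFPneg cells (818 CPM, the others 372 to 433) and for the summed B and plasma cell markers in GFPpos cells (2051 CPM, the others 353 to 629). Mouse 26 was one for Hmox1 in GFPpos cells (1489 CPM, the others 234 to 394), for Ubash3a in GFPneg cells (8.29 CPM, the others 17.9 to 19.4) and for the summed erythroid markers in GFPneg cells (51.6 CPM, the others 1.005 to 4.48). Mouse 22 was one in GFPneg cells for Speg (12.2 CPM, the others 7.29 to 8.06) and for the summed lysosome genes (67694 CPM, the others 52258 to 53725). Mouse 23 was one for Ccl8 in GFPpos cells (804 CPM, the others 430.2 to 489).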

How the results depend on the processing

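With 4 mice some differences are missed: on simulated counts the paired fit called 46 of 50 genes raised 4-fold, 28 of 50 raised 2-fold, 36 of 46 lowered 4-fold and 22 of 46 lowered 2-fold. All these changes were planted at once, and the spread came from the fitted dispersion alone. The rates therefore need not hold for the measured counts, where few genes passed. The unpaired count of 0 called genes became 1 with DESeq2 and 6 with the replicate block over the 8 libraries, and stayed 0 with the block over all populations and with each library left out. Genes at an unadjusted p under 0.05 (71) numbered 28 with spike-in scaling, 540 without a filter, 22 with 10 counts in every library, 150 with DESeq2, 163 with the 8 libraries alone, 128 with the replicate block over all populations, 520 with the block over the 8 libraries and 47 with first libraries only, and 62 to 177 with 1 library left out, most without the GFPpos or GFPneg library of mouse 26 (177 and 141). Genes with a 95% interval inside 1 log2 unit (2988) numbered 1 with spike-in scaling, 4487 with the 8 libraries alone, 5623 with the replicate block and 1419 with first libraries only, and 2376 to 2578 with 1 library left out. Non-overlapping genes (185) numbered 320 to 618 and genes moving 1 way in every mouse (1542) 2777 to 3180 with 1 library left out, where fewer libraries had to meet the rule.

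The paired count of 6 became 1 with spike-in scaling, 74 without a filter, 16 with 10 counts in every library and 43 with DESeq2, alternatives chosen after seeing the data, and 0 to 5 with 1 mouse left out. The 6 genes were all among the 74 and the 16, and 5 of them among the 43. The mouse count of 1396 became 2483 without a filter. The difference in genes with 5 or more reads (-156, GFPpos minus GFPneg) ranged from -220 to 14 with 1 mouse left out, above 0 without mouse 24 alone. Hmox1 ranged from -0.10 (without the GFPpos library of mouse 26) to 1.62 (without its GFPneg library) in the unpaired fit. The counts of genes whose GFP effect differed between populations stayed at 0 under every alternative run. The causes were not tested.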

Other observations

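Markers of several other cells that the sort could hold were also read in the 8 libraries. The summed oligodendrocyte markers lay between 359 and 475 CPM in the 8 libraries, astrocyte markers between 35.9 and 89.3 CPM, neuron markers between 2.01 and 19.2 CPM, and endothelial and pericyte markers between 43.9 and 154 CPM, with 0 members of these lists at an unadjusted p under 0.05 in the paired fit. The endothelial and pericyte sum was higher in the GFPpos library of only 1 of 4 mice, with a median log2 fold change of -0.61 over 4 tested genes. Neutrophil markers summed to 166 to 729 CPM, at 0.677, 0.976, 1.75 and 1.34 of the GFPneg level in mice 22, 23, 24 and 26. Their median log2 fold change was 0.56, with 5 of 7 tested genes above 0. S100a9 was higher in the GFPpos library of 3 of 4 mice (unadjusted p = 0.0268, adjusted p = 0.847 by edgeR). Of 13 genes of the tissue dissociation response, the immediate-early genes Junb and Ier2 were lower in GFPpos cells at an unadjusted p under 0.05. None was higher at that threshold, where 2.42% of all genes were lower and 2.69% higher. Junb and Ier2 were lower in every mouse, but 5 of the 13 genes had a log2 fold change above 0. The summed list was 0.928 to 0.985 of the GFPneg level in the 4 mice. Of 22 tested genes of hypoxia and glycolysis, 1, the phosphofructokinase gene Pfkl, was higher and 0 lower at that threshold. By direction alone 15 of the 22 were above 0, and the summed list was higher in all 4 mice, by 1.003-fold to 1.109-fold.

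The share of reads from mitochondrial genes was 0.606% to 0.912%. It did not differ between GFPpos and GFPneg libraries beyond the spread of the pairs (exact paired permutation test, two-sided, p = 0.625, n = 4 pairs). The smallest p possible with 4 pairs is 0.125, so this test could not reach 0.05. Across all genes, the 2 libraries of 1 mouse correlated at 0.900 to 0.958 in log2 CPM, while libraries of different mice correlated at 0.809 to 0.926 between the GFP groups. These are correlations across genes, which are not independent replicates.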
